A study of Mus musculus with 8 samples.

Results

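Dentate granule cells and hilar mossy cells are the excitatory neurons of the dentate gyrus, and 31 genes that mark them were followed in RNA from tagged ribosomes of CCK cells. The genes were chosen by name as markers, 20 of granule cells and 11 of mossy cells, with earlier results of these data known. They are among the 39017 Ensembl genes of the count table, and all 31 passed the filter on low counts. Granule cells receive the cortical input of the dentate gyrus and send mossy fibres to CA3, and they keep being born in the adult mouse. Mossy cells lie in the hilus, are excited by granule cells and project back onto them. Prox1, which encodes a homeodomain factor that specifies granule cells, and Calb2, which encodes calretinin, a mossy cell marker in the mouse, were not among the 31 and served as separate reference points.

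The cKO libraries came from CCK cre+ mice that carried L10-EGFP and SMARCA3 fl/fl, and the WT libraries from their littermates, also with Cre and the tagged ribosomal protein but without SMARCA3 fl/fl. SMARCA3, encoded by Hltf, is a chromatin remodeller. Cre switches on the tag and deletes the floxed gene in cells that express Cck or did so earlier, so the tagged cells may include several neuron types. Translating ribosome affinity purification (TRAP) then pulls down the tagged ribosomes with their RNA. Each of the 5 cKO and 3 WT libraries pooled 4 hippocampi. Age and how the pools relate to each other were not given in the sources used here, so p-values measure the spread between these pools. RNA taken ahead of the pull-down was not analysed here, so enrichment of a gene on tagged ribosomes was not measured.

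Library totals ran from 31760155 to 61823651 counts in cKO and from 37239119 to 49522676 in WT. Levels are given in CPM, counts scaled to library totals adjusted by the trimmed mean of M values (TMM). Hltf itself was at 2.83 to 5.10 CPM in cKO 1 to 4, against 8.39 to 13.7 CPM in WT, and reached 11.4 CPM in the library labelled cKO 5, so the level in that library goes against its label. Genes without a count despite a mean of at least 1 CPM numbered 18 in cKO 4, 51 in the library labelled cKO 5 and 9 in WT 1. They numbered 0 to 2 in the other libraries. The libraries with most such genes were also the low ones for Dsp and other granule cell genes described below. The part of undetected genes in that pattern was not tested.

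Promoters are shown for the 4 granule cell genes whose levels differed most between libraries, since these carry the main pattern described here. RefSeq (GRCm38.p6) had promoters for 27 of the 31 genes, without Bhlhe22, Calb1, Fgf1 and Glipr1. Each window runs from 250 bases before to 50 after the start of the gene in RefSeq, 5′ to 3′. For Stxbp6 the RefSeq start lies inside the gene as GENCODE draws it, so its window also covers the GENCODE start. Capitals mark the E-box CANNTG, which basic helix-loop-helix factors such as NEUROD1 bind, and the GC box GGGCGG, which Sp factors bind, read on both strands.

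Plk5, chr10:80356209-80356508, plus strand: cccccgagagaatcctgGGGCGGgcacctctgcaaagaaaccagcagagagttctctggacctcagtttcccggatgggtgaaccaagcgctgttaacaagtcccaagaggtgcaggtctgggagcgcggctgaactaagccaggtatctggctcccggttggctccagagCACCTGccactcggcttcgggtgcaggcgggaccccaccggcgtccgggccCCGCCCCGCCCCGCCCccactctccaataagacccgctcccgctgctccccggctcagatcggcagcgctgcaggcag

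Stxbp6, chr12:45074434-45074733, minus strand: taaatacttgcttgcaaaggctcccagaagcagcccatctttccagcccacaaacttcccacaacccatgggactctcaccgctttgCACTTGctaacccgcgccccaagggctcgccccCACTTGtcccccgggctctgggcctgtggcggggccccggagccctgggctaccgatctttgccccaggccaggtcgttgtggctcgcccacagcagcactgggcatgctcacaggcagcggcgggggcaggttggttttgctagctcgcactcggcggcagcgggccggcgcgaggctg

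Dsp, chr13:38151044-38151343, plus strand: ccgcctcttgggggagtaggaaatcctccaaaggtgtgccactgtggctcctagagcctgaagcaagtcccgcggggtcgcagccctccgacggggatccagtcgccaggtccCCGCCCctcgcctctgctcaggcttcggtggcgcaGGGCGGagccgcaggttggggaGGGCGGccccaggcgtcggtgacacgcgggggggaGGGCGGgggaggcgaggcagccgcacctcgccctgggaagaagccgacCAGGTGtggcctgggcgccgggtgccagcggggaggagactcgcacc

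C1ql2, chr1:120340332-120340631, plus strand: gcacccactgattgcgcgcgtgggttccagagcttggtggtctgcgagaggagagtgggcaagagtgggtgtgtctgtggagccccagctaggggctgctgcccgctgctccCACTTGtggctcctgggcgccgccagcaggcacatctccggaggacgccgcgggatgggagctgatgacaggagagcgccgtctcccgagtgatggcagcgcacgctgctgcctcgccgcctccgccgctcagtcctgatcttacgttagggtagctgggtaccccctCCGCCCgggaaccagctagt

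These windows had a GC content of 66.7% for Plk5, 66.3% for Stxbp6, 73.0% for Dsp and 67.3% for C1ql2, against a median of 52.7% over 32851 mouse promoter windows of the same length. All 4 held an E-box, as did 72.3% of all windows. Plk5 and Dsp held 4 GC boxes each, C1ql2 held 1 and Stxbp6 none, and 35.7% of all windows held one. None of the 4 held the CAGATG form of the E-box, which overlaps CANNTG and was in 17.2% of all windows. None held the half-site GTTGCC of the RFX family, to which the granule gene Rfx3 belongs, which was in 12.5% of all windows. The cyclic AMP response element TGACGTCA was in none of the 23 granule gene windows and in 1.79% of all windows. Over the 23 granule gene windows the E-box was in 69.6%, the GC box in 34.8%, and CAGATG and GTTGCC in 21.7% each (5 windows each). A match is a description of the letters and does not show binding.

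The clearest pattern in the dentate genes was a difference between libraries within each genotype. Dsp, which encodes the desmosomal plaque protein desmoplakin and is a standard granule cell marker (ENSMUSG00000054889, chromosome 13 of mm10, 38151294 to 38198577 on the plus strand), was at 35.2, 26.7 and 18.7 CPM in cKO 1, 2 and 3, 7.39 CPM in cKO 4 and 6.74 CPM in the library labelled cKO 5, against 8.14, 18.4 and 35.2 CPM in WT 1, 2 and 3. High and low libraries thus occurred in each group, and the groups overlapped over nearly their whole range. The highest library exceeded the lowest by a factor of 5.22 within cKO and 4.33 within WT, while the means were 18.9 ± 12.3 CPM in cKO (SD, n = 5) and 20.6 ± 13.7 CPM in WT (SD, n = 3). The log2 fold change of Dsp was -0.12 (SE 0.56) in the edgeR fit, adjusted p 0.975.

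C1ql2, which encodes a secreted C1q-like protein that organises mossy fibre synapses (ENSMUSG00000036907, chromosome 1, 120340582 to 120343174), was at 25.7, 30.7 and 18.7 CPM in cKO 1, 2 and 3, 7.23 CPM in cKO 4 and 8.34 CPM in the library labelled cKO 5, against 6.99, 15.9 and 27.5 CPM in WT 1, 2 and 3. The low libraries were the same as for Dsp. C1ql2 averaged 18.1 ± 10.4 CPM in cKO (SD, n = 5) and 16.8 ± 10.3 CPM in WT (SD, n = 3), and the edgeR fit put the log2 difference at 0.11 ± 0.51 (SE), adjusted p 0.974. Stxbp6, which encodes amisyn, a SNARE-binding regulator of vesicle fusion (chromosome 12, 44852484 to 45074709), was at 126, 122 and 109 CPM in cKO 1, 2 and 3, 13.5 CPM in cKO 4 and 23.4 CPM in the library labelled cKO 5, against 34.4, 79.6 and 162 CPM in WT 1, 2 and 3. Its highest library stood 12 times above its lowest, and its log2 fold change was -0.22 (SE 0.69; edgeR adjusted p 0.958). Plk5, which encodes a polo-like kinase found in neurons, was at 3.91, 4.04 and 3.06 CPM in cKO 1, 2 and 3, 0.0216 CPM (1 count) in cKO 4 and 0.679 CPM in the library labelled cKO 5, against 0.319, 1.65 and 4.14 CPM in WT 1, 2 and 3.

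**Figure D1:**
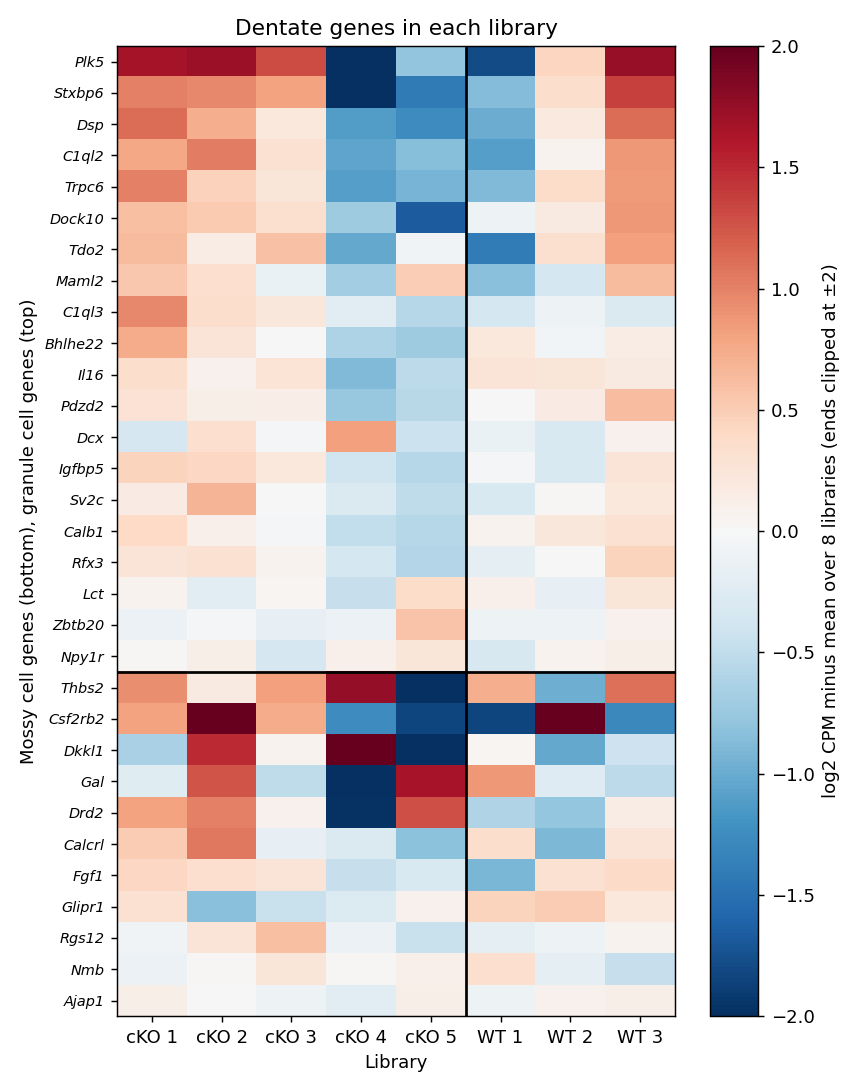
Rows are the 20 granule cell genes (top) and 11 mossy cell genes (bottom), each block ordered from the most to the least variable, and columns are the 5 cKO and 3 WT libraries. Colour is log2 CPM (prior count 2) minus the mean of the gene over the 8 libraries. The upper granule rows, from Plk5 to Trpc6, are low in cKO 4, the library labelled cKO 5 and WT 1, and high in cKO 1 and WT 3, while Npy1r, Zbtb20 and Lct show little of this.

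Across the granule cell genes, cKO 4 lay below the median of the 8 libraries for 18 of 20 genes, the library labelled cKO 5 for 16 and WT 1 for 17. Over all 17654 genes tested, these libraries lay below the median for 51.2%, 52.2% and 50.2%. WT 3 lay below for 2 of 20, cKO 1 for 3, cKO 2 for 4, cKO 3 for 8 and WT 2 for 12, against 48.5 to 50.4% of all genes. The lowest value of a granule gene was in the library labelled cKO 5 for 9 of 20, in cKO 4 for 6, in WT 1 for 3 and in cKO 3 for 2. Of all genes, 24.4% were lowest in the library labelled cKO 5, 18.6% in cKO 4, 12.6% in WT 1 and 9.06% in cKO 3. The library labelled cKO 5 was also highest for 22.4% of all genes and 3 of the 20 granule genes. For cKO 4 these were 17.5% and 1 of 20. Averaged over the 20 genes as log2 CPM from each gene's mean over 8 libraries, the level was 0.53, 0.42 and 0.20 in cKO 1, 2 and 3, -0.79 in cKO 4, with -0.52 in the library labelled cKO 5, against -0.44, 0.06 and 0.53 in WT 1, 2 and 3.

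The spread between libraries was wider for these genes than for most. The SD of log2 CPM over 8 libraries had a median of 0.463 over the 20 granule genes and 0.484 over the 8 mossy genes at a mean of at least 1 CPM, against 0.298 over 14629 tested genes at that level. The SD was above 0.749, the 90th percentile of those genes, for 7 of 20 granule genes and 2 of 8 mossy genes. The sets were not matched for level, and low counts widen this SD. Thbs2, without a count in the library labelled cKO 5, is among the 8 mossy genes. Within the groups the median SD of the granule genes was 0.461, close to that over all libraries. The absolute log2 fold change was under the within-group SD for 19 of 20 granule genes, C1ql3 excepted, and for 9 of 11 mossy genes, Dkkl1 and Glipr1 excepted. This count is not given for all genes, so it does not set the dentate genes apart.

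Prox1 and several other granule cell markers outside the 31 genes were low in the same libraries. Prox1 was at 166, 187 and 155 CPM in cKO 1, 2 and 3, 37.9 CPM in cKO 4 and 46.5 CPM in the library labelled cKO 5, against 43.1, 97.0 and 178 CPM in WT 1, 2 and 3, and the edgeR fit put the log2 difference at 0.16 ± 0.55 (SE), adjusted p 0.962. The 3 low libraries lay at 37.9 to 46.5 CPM, apart from the other 5. For that reason no correlation over the 8 libraries is given. The list of 8 other granule genes, with Akap7, Neurod1, Ntf3, Ablim3, Sema5b, Glis3 and Tiam1 beside Prox1, averaged 0.51, 0.54 and 0.49 in cKO 1, 2 and 3, -0.45 in cKO 4, with -0.84 in the library labelled cKO 5, against -0.82, 0.06 and 0.51 in WT 1, 2 and 3. None of the 8 had an unadjusted edgeR p under 0.05, and their median log2 fold change was 0.17. Sema5b, which encodes a semaphorin, had the largest spread of these 8, at 21.8, 23.7 and 15.2 CPM in cKO 1, 2 and 3, 1.88 CPM in cKO 4 and 6.68 CPM in the library labelled cKO 5, against 2.69, 8.51 and 11.3 CPM in WT 1, 2 and 3. Ablim3 did not follow, with its highest level, 39.9 CPM, in cKO 4.

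Markers of CA1 pyramidal cells ran the other way. The 7 CA1 markers averaged -0.29, -0.37 and -0.16 in cKO 1, 2 and 3, 0.55 in cKO 4, with 0.56 in the library labelled cKO 5, against 0.21, -0.06 and -0.42 in WT 1, 2 and 3. None of the 7 lay below its median over 8 libraries in cKO 4, the library labelled cKO 5 and WT 1. Wfs1, which encodes wolframin and marks CA1, was at 158, 123 and 150 CPM in cKO 1, 2 and 3, 320 CPM in cKO 4 and 304 CPM in the library labelled cKO 5, against 215, 185 and 124 CPM in WT 1, 2 and 3. The ratio of Prox1 to Wfs1, which does not depend on how library totals are scaled, was 1.05, 1.53 and 1.03 in cKO 1, 2 and 3, 0.118 in cKO 4, with 0.153 in the library labelled cKO 5, against 0.201, 0.526 and 1.43 in WT 1, 2 and 3. In these bulk libraries, fewer cells of a type and less RNA per cell cannot be told apart. The part that the share of dentate tissue in each pool has in this pattern was not tested.

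**Figure D2:**
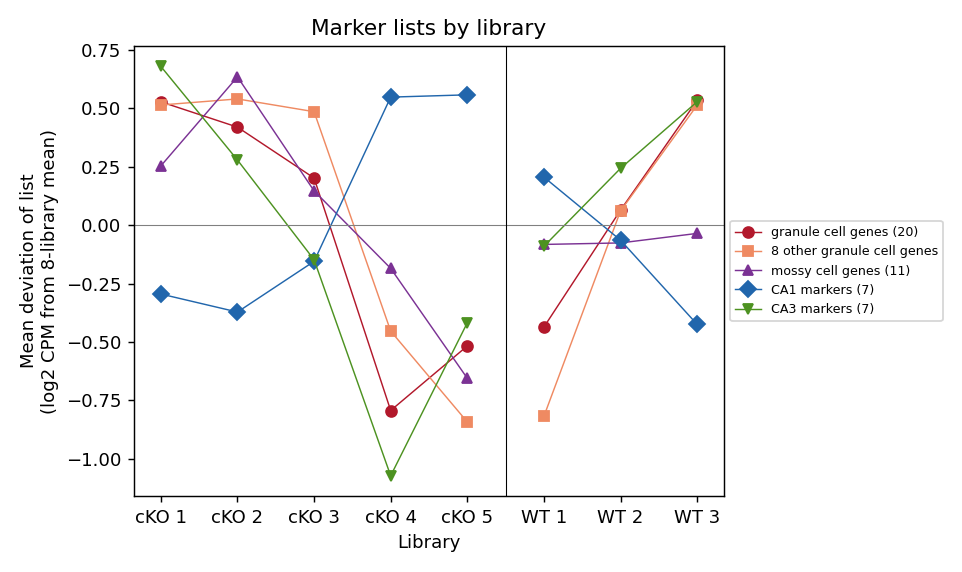
Each point is the mean, over the genes of a list, of log2 CPM minus the gene's mean over 8 libraries, for the cKO libraries (left) and the WT libraries (right), and lines only join points of a list. The 20 granule cell genes and the 8 other granule cell genes are below 0 in cKO 4, the library labelled cKO 5 and WT 1, where the 7 CA1 markers are above 0.

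CA3 markers moved partly with the granule cell genes. The 7 CA3 markers averaged 0.68, 0.28 and -0.15 in cKO 1, 2 and 3, -1.07 in cKO 4, with -0.42 in the library labelled cKO 5, against -0.09, 0.24 and 0.53 in WT 1, 2 and 3. The average of the 6 CA2 markers lay between -0.27 and 0.17 in all libraries, and that of the 5 general excitatory markers between -0.13 and 0.13. Opposite shifts of single markers can cancel in such averages. The summed CA2 level was 537 CPM in cKO 4 and 504 CPM in the library labelled cKO 5, against 752 to 860 CPM in WT. It was 696 to 832 CPM in cKO 1 to 3. The summed excitatory level was 7687 to 11540 CPM in cKO and 7158 to 7584 CPM in WT. The 7 GABAergic markers ran from -0.31 to 0.27 in cKO and from -0.17 to 0.29 in WT. Their summed level was 144 to 231 CPM in cKO and 180 to 227 CPM in WT, with none at 0 counts in any library. The 7 CCK interneuron markers, also without a 0, summed to 164 to 232 CPM in cKO and 184 to 214 CPM in WT. The lowest library totals were those of cKO 3 (31760155 counts, granule average 0.20) and WT 1 (37239119, -0.44). The library labelled cKO 5 came next (38776329, -0.52), while cKO 4 had 47461371 counts and a granule average of -0.79. The part of the library totals in the granule pattern was not tested.

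Glial and other markers were present beside the neuronal ones. The 7 astrocyte markers summed to 328 to 503 CPM in cKO and 326 to 434 CPM in WT, with Aldh1l1 at 0 in at least 1 library. The 7 oligodendrocyte markers summed to 79.0 to 103 CPM in cKO and 68.3 to 71.3 CPM in WT, with none at 0. The 7 microglia markers summed to 2.15 to 5.32 CPM in cKO and 4.25 to 6.49 CPM in WT, and C1qa, C1qb, Tmem119 and Aif1 were at 0 in at least 1 library. The 5 choroid plexus markers summed to 25.3 to 73.3 CPM in cKO and 27.8 to 37.6 CPM in WT, with Folr1, Clic6 and Aqp1 at 0 in at least 1 library. The 5 endothelial markers summed to 0.384 to 2.57 CPM in cKO and 0.639 to 0.824 CPM in WT, with Cldn5, Tek and Cdh5 at 0 in at least 1 library. The 5 Cajal-Retzius markers summed to 12.2 to 26.5 CPM in cKO and 12 to 19.7 CPM in WT, with Lhx1 and Lhx5 at 0 in at least 1. The 4 thalamic markers summed to 37.3 to 58.9 CPM in cKO and 47.7 to 52.8 CPM in WT, with Lef1 at 0 in at least 1. Of the markers outside the dentate lists, those with an unadjusted edgeR p under 0.05 included Slc17a7 and Camk2a among excitatory, Map3k15 among CA2, Mobp among oligodendrocyte, Aldh1l1 among astrocyte, Aif1 among microglia and Lef1 among thalamic genes, and none was called. Their edgeR log2 differences were 0.49 (Slc17a7), 0.32 (Camk2a), -0.41 (Map3k15), 1.07 (Mobp), 2.90 (Aldh1l1), -2.43 (Aif1) and -2.63 (Lef1), with adjusted p from 0.470 to 0.570. The part of these cells in the levels of the dentate genes was not tested.

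Setting cKO against WT asks whether deletion of SMARCA3 alters these RNAs on ribosomes of CCK cells. None of the 31 genes was called by edgeR at an adjusted p under 0.05, as 0% of the 17654 genes tested were called in either direction. At an unadjusted edgeR p under 0.05 there were 0 higher and 1 lower among the 31, against 5.02% higher and 3.7% lower of all genes (8.72% in either direction). DESeq2 called none of the 25 members to which it gave an adjusted p, and 68 genes higher and 40 lower overall. It gave none to Plk5, Drd2, Csf2rb2, Gal, Thbs2 and Dkkl1. The libraries of the groups overlapped for all 31, against 3.38% of all genes with every cKO library above WT and 3.82% below (7.19% in either direction). The median log2 fold change was -0.04 over the 20 granule genes, with 9 above 0 and 11 below, and 0.16 over the 11 mossy genes, with 8 above 0 and 3 below, against 0.02 over all genes tested.

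**Figure D3:**
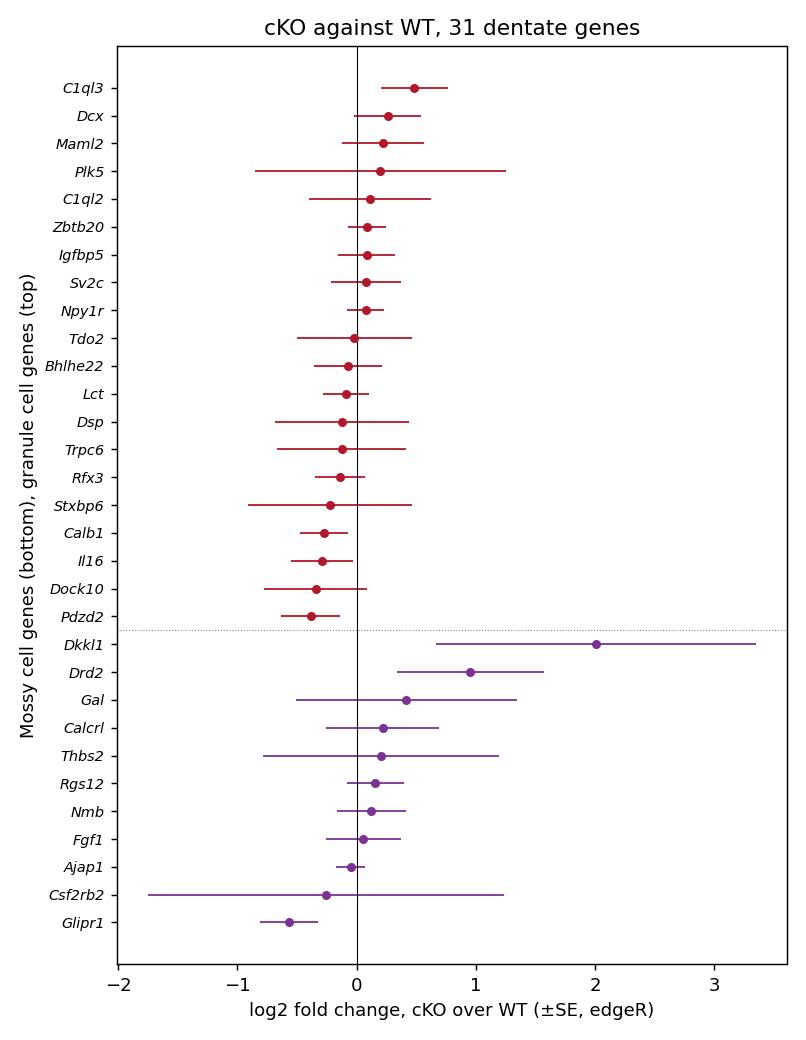
Points are log2 fold changes of cKO over WT with SE from the edgeR fit over 5 cKO and 3 WT libraries, for the granule cell genes (top) and mossy cell genes (bottom), each ordered by size. No gene passed at an adjusted p under 0.05, and the widest bars belong to Csf2rb2, Dkkl1 and Plk5.

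Among transcription regulators of granule cells, Zbtb20, a zinc finger repressor needed for hippocampal identity, had the highest level per length of all 31 genes, 42.7 CPM per kilobase of exon. Its levels were 1187, 1257, 1156 and 1186 CPM in cKO 1 to 4 and 1917 CPM in the library labelled cKO 5, against 1205, 1210 and 1370 CPM in WT 1, 2 and 3. Apart from the library labelled cKO 5, its levels were even across libraries, unlike those of Dsp or C1ql2. Zbtb20 is also made in CA1 neurons and astrocytes and shares its locus with other annotated genes, among them BC002163, so its counts are not specific to granule cells. Rfx3, which encodes a factor of ciliated cells and neurons, was at 153, 158 and 134 CPM in cKO 1, 2 and 3, 101 CPM in cKO 4 and 85.8 CPM in the library labelled cKO 5, against 114, 129 and 175 CPM in WT 1, 2 and 3. The edgeR fit put the log2 difference at -0.14 ± 0.21 (SE), adjusted p 0.897. Bhlhe22, a helix-loop-helix repressor, averaged 67.6 ± 28.7 CPM in cKO (SD, n = 5) and 70.9 ± 6.80 CPM in WT (SD, n = 3). Maml2, a Notch coactivator, averaged 32.5 ± 10.3 CPM in cKO (SD, n = 5) and 27.8 ± 15.0 CPM in WT (SD, n = 3).

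Among synaptic genes, C1ql3, a relative of C1ql2 that is also made in CA3 and cortex, had the smallest p of the granule genes. C1ql3 (ENSMUSG00000049630, chromosome 2, 13003457 to 13011806) was at 161, 106 and 96.9 CPM in cKO 1, 2 and 3, 71.3 CPM in cKO 4 and 56.1 CPM in the library labelled cKO 5, against 65.4, 77.6 and 67.8 CPM in WT 1, 2 and 3. The first 3 cKO libraries lay above all WT libraries and the library labelled cKO 5 below them. The edgeR log2 difference was 0.49 ± 0.28 (SE), unadjusted p 0.108 and adjusted p 0.657, with an exact permutation p of 0.321. It was 0.23 without cKO 1 (edgeR unadjusted p 0.277) and 0.63 without the library labelled cKO 5 (edgeR unadjusted p 0.0166, adjusted p 0.500). Within the libraries, the ratio of C1ql3 to C1ql2 ran from 3.45 to 9.85 in cKO and from 2.47 to 9.35 in WT. Sv2c, a synaptic vesicle glycoprotein, averaged 6.96 ± 2.33 CPM in cKO (SD, n = 5) and 6.59 ± 1.16 CPM in WT (SD, n = 3).

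**Figure D4:**
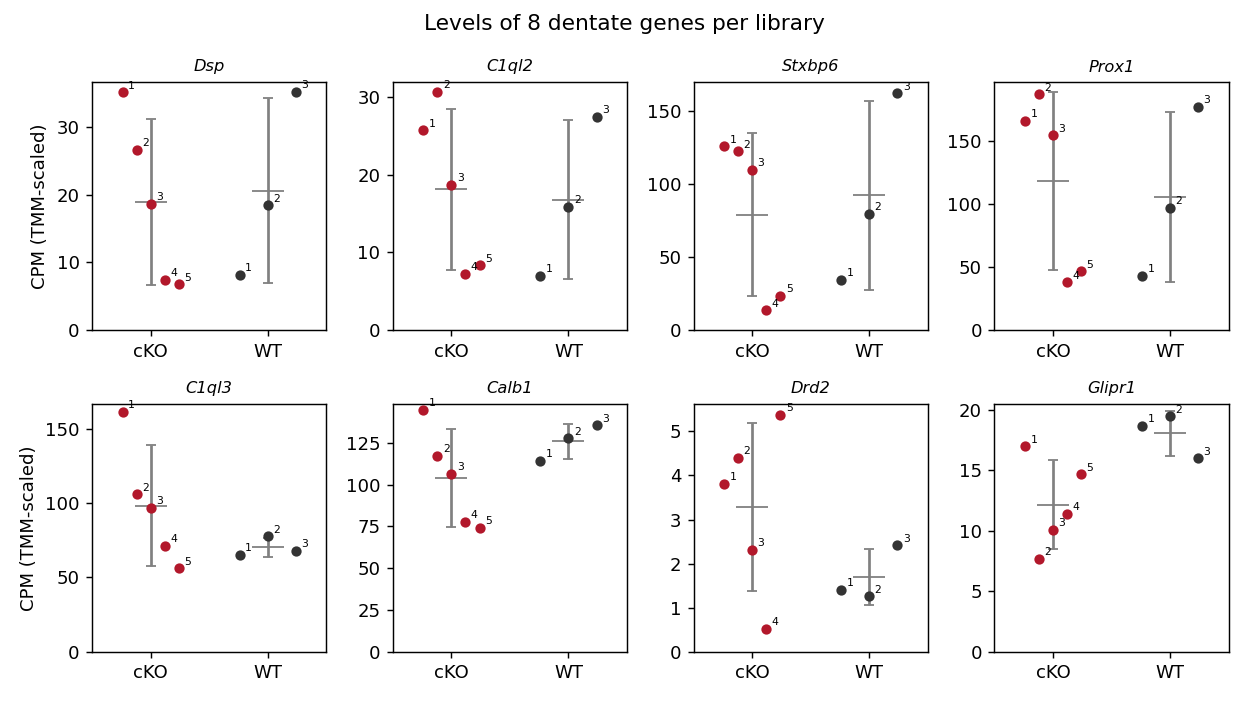
Points are CPM of 8 genes in single libraries, cKO left and WT right, with the library number beside each point, and the bars give mean and SD (n = 5 cKO, n = 3 WT). Dsp, C1ql2, Stxbp6 and Prox1 share the low libraries cKO 4, cKO 5 by label and WT 1, while Drd2 is highest in the library labelled cKO 5 at 5.38 CPM.

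The receptor and channel genes of granule cells split in their spread. Trpc6, a cation channel opened by diacylglycerol, was at 5.65, 3.84 and 3.31 CPM in cKO 1, 2 and 3, 1.27 CPM in cKO 4 and 1.44 CPM in the library labelled cKO 5, against 1.49, 3.61 and 5.05 CPM in WT 1, 2 and 3, low in the same libraries as Dsp. Npy1r, the Y1 receptor of neuropeptide Y, was at 40.8, 43.6, 31.8 and 43.0 CPM in cKO 1 to 4 and 47.3 CPM in the library labelled cKO 5, against 32.1, 42.1 and 43.4 CPM in WT 1, 2 and 3. Npy1r had one of the 3 smallest spreads of the dentate genes, with Zbtb20 and Ajap1, and a log2 fold change of 0.08 (SE 0.16; edgeR adjusted p 0.930).

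Among the enzymes and structural proteins, Calb1, which encodes the calcium buffer calbindin (ENSMUSG00000028222, chromosome 4, 15881264 to 15908064), was at 145, 117 and 107 CPM in cKO 1, 2 and 3, 77.9 CPM in cKO 4 and 74.1 CPM in the library labelled cKO 5, against 114, 128 and 135 CPM in WT 1, 2 and 3. Calbindin is also made by CA1 pyramidal cells and interneurons, and its highest cKO library exceeded the lowest by a factor of 1.95, less than for Dsp. The edgeR fit put the log2 difference at -0.27 ± 0.20 (SE), adjusted p 0.745, and the exact permutation p was 0.250. Without cKO 1 the difference was -0.42 (edgeR unadjusted p 0.0297, adjusted p 0.367), and without the library labelled cKO 5 it was -0.18. Pdzd2, a protein of PDZ domains, had the smallest p of this group. Its levels were 31.9, 28.3 and 28.4 CPM in cKO 1, 2 and 3, 15.3 CPM in cKO 4 and 17.7 CPM in the library labelled cKO 5, against 26.2, 29.3 and 39.9 CPM in WT 1, 2 and 3, and the edgeR fit put the log2 difference at -0.38 ± 0.25 (SE), adjusted p 0.707. Without WT 3 the Pdzd2 difference was -0.19. Gm2606 lies opposite Pdzd2 and held 7735 counts over the 8 libraries against 10095 for Pdzd2, and Stard5 lies opposite Il16, so without stated strand use these counts may mix.

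The remaining genes of this group followed Dsp to different degrees. Dock10, a guanine nucleotide exchange factor, was at 47.4, 45.1 and 39.0 CPM in cKO 1, 2 and 3, 19.1 CPM in cKO 4 and 9.86 CPM in the library labelled cKO 5, against 29.2, 35.6 and 57.3 CPM in WT 1, 2 and 3. Tdo2, which opens the kynurenine route of tryptophan breakdown, ran from 2.25 to 7.14 CPM in cKO and from 1.73 to 8.18 CPM in WT. Il16, the precursor of interleukin-16, was at 10.7 CPM in cKO 4 and 13.8 CPM in the library labelled cKO 5, below the 21.0 to 25.2 CPM of the other cKO libraries and the 22.5 to 23.8 CPM of WT, so WT 1 did not join the low libraries there. Igfbp5, which binds insulin-like growth factors, averaged 48.1 ± 14.6 CPM in cKO (SD, n = 5) and 45.4 ± 8.70 CPM in WT (SD, n = 3). Lct, which encodes lactase, was at 15.4 to 27.2 CPM in cKO and 18.9 to 25.0 CPM in WT and was highest in the library labelled cKO 5, where Dsp was lowest.

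Dcx, which encodes the microtubule protein doublecortin of immature neurons (ENSMUSG00000031285, chromosome X, 143855842 to 143933311), followed the mature granule cell genes only in part. Its levels were 11.3, 18.1 and 14.1 CPM in cKO 1, 2 and 3 and 25.4 CPM in cKO 4. In the library labelled cKO 5 Dcx was at 10.7 CPM, and in WT 1, 2 and 3 at 13.1, 11.6 and 15.2 CPM. Dcx was thus highest in cKO 4, where 6 of the granule genes were lowest. It was lowest in the library labelled cKO 5, as were 9 of the 20 granule genes, Dcx among them. The edgeR fit put the log2 difference at 0.26 ± 0.28 (SE), adjusted p 0.845, and without cKO 4 the difference was 0.03. Other genes of immature granule cells were near the floor. Sox11, a factor of newborn neurons, was at 0.517, 0.623 and 1.40 CPM in cKO 1, 2 and 3, 4.23 CPM in cKO 4 and 0.951 CPM in the library labelled cKO 5, against 0.346, 0.0797 and 0.371 CPM in WT 1, 2 and 3. All cKO libraries lay above WT for Sox11, and the edgeR log2 difference was 2.54 ± 0.89 (SE), unadjusted p 0.0150 and adjusted p 0.499, so it was not called. Igfbpl1, Eomes and Draxin had 0 to 14 counts per library and were not tested. Neurons that do not descend from granule cell precursors can also make Dcx, and its source in these libraries was not tested.

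Mossy cell genes were lower per length than the leading granule cell genes and did not share one order of libraries. Their levels per length ran from 0.0526 CPM per kilobase for Csf2rb2 to 15.5 for Ajap1, against 0.633 for Trpc6 to 42.7 for Zbtb20 among granule genes. Averaged over the 11 genes, the level was 0.25, 0.63 and 0.15 in cKO 1, 2 and 3, -0.19 in cKO 4, with -0.66 in the library labelled cKO 5, against -0.08, -0.08 and -0.04 in WT 1, 2 and 3. The WT averages thus lay close to each other on this scale, while the granule averages spanned -0.44 to 0.53 there. In cKO both spans were wide, -0.66 to 0.63 for the mossy and -0.79 to 0.53 for the granule average. Of the 11 mossy genes, 2, 4 and 6 lay below their median over 8 libraries in cKO 1, 2 and 3. In cKO 4 it was 8 and in the library labelled cKO 5 it was 7, against 51.2% and 52.2% of all genes. In WT 1, 2 and 3 it was 6, 7 and 4. Opposite shifts of single mossy genes can cancel in the mossy average. In WT 1, 2 and 3, Fgf1 was at -0.92, 0.31 and 0.38 and Calcrl at 0.34, -0.90 and 0.26. Ajap1 was at -0.11, 0.09 and 0.12. Genes at a mean under 1 CPM, Csf2rb2, Gal and Dkkl1, weigh as much in that average as the others.

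Drd2, the dopamine D2 receptor and a defining mossy cell gene (ENSMUSG00000032259, chromosome 9, 49340627 to 49408177), was at 3.81, 4.4 and 2.31 CPM in cKO 1, 2 and 3, 0.518 CPM in cKO 4 and 5.38 CPM in the library labelled cKO 5, against 1.41, 1.25 and 2.41 CPM in WT 1, 2 and 3. The counts behind these values ran from 24 to 275 per library. Of the cKO libraries 3 lay above all WT libraries and cKO 4 lay below them. Drd2 averaged 3.28 ± 1.90 CPM in cKO (SD, n = 5) and 1.69 ± 0.628 CPM in WT (SD, n = 3), and the edgeR log2 difference was 0.95 ± 0.61 (SE), unadjusted p 0.148 and adjusted p 0.704, with an exact permutation p of 0.482. Without cKO 4 its edgeR log2 difference was 1.23, unadjusted p 0.0112 and adjusted p 0.605. Without the library labelled cKO 5, where Drd2 was highest, it was 0.70 (edgeR unadjusted p 0.271, adjusted p 0.788). Drd2 is also made by some interneurons and by striatal neurons. Relative to Prox1, Drd2 was at 0.0137 to 0.0235 in cKO 1 to 4, against 0.0129 to 0.0327 in WT, and at 0.116 in the library labelled cKO 5.

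Calb2 was steady where Drd2 was not, at 21.3, 24.8, 22.2 and 22 CPM in cKO 1 to 4 and 17.7 CPM in the library labelled cKO 5, against 15.3, 21.1 and 17.8 CPM in WT 1, 2 and 3. The edgeR fit put the log2 difference at 0.25 ± 0.17 (SE), adjusted p 0.71. Calretinin is also made by interneurons and immature granule cells. Calcrl, the receptor of calcitonin gene-related peptide, was at 1.55 to 5.79 CPM in cKO and 1.45 to 3.51 CPM in WT. Csf2rb2, a cytokine receptor chain with a close paralogue that can share its reads, had 0 to 43 counts per library, and its level is uncertain.

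Of the secreted products, Fgf1, a growth factor, was low in the same 3 libraries as Dsp, at 15.1, 14.2 and 13.6 CPM in cKO 1, 2 and 3, 8.25 CPM in cKO 4 and 9.13 CPM in the library labelled cKO 5, against 5.98, 14.0 and 14.7 CPM in WT 1, 2 and 3. Nmb, which encodes the peptide neuromedin B, was at 3.29 to 4.24 CPM in cKO and 2.58 to 4.55 CPM in WT, and was highest in WT 1. Gal, which encodes galanin, was at 0.0648 to 1.55 CPM in cKO and 0.309 to 0.877 CPM in WT. Thbs2, a matrix glycoprotein, was at 3.43 CPM in cKO 4 and had 0 counts in the library labelled cKO 5, with 1.12 to 1.92 CPM in the other cKO libraries and 0.478 to 2.16 CPM in WT. Dkkl1, a secreted relative of the Dickkopf proteins, was at 0.115, 0.655 and 0.218 CPM in cKO 1, 2 and 3, 1.94 CPM in cKO 4, with 0 in the library labelled cKO 5, against 0.213, 0.0797 and 0.144 CPM in WT 1, 2 and 3. The fitted log2 fold change of Dkkl1, 2.01 (SE 1.34; edgeR adjusted p 0.717), rested largely on cKO 4, and without that library it was 0.80. Without the library labelled cKO 5 it was 2.33 (edgeR unadjusted p 0.0459, adjusted p 0.563).

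Glipr1, which encodes a secreted protein related to plant defence proteins, was the one gene of the 31 with an unadjusted p under 0.05. Glipr1 (ENSMUSG00000056888, chromosome 10, 111985448 to 112002631) was at 17.0, 7.67, 10.1 and 11.4 CPM in cKO 1 to 4 and 14.6 CPM in the library labelled cKO 5, against 18.6, 19.5 and 16.0 CPM in WT 1, 2 and 3. Only cKO 1 reached into the WT range. The means were 12.1 ± 3.68 CPM in cKO (SD, n = 5) and 18 ± 1.82 CPM in WT (SD, n = 3), and the edgeR log2 difference was -0.57 ± 0.24 (SE), unadjusted p 0.0393 and adjusted p 0.559, so Glipr1 was not called. Without WT 1 the edgeR unadjusted p of Glipr1 was 0.0929, and without WT 2 it was 0.113. The exact permutation p was 0.0714, where 0.0179 is the smallest these libraries allow. Krr1, a ribosome biogenesis gene, overlaps Glipr1 on the opposite strand and held 33748 counts over the 8 libraries against 5208 for Glipr1, so without stated strand use the 2 cannot be fully separated. Ajap1, an adherens junction protein, had the smallest spread of all 31 genes, at 50.7, 46.8, 43.9 and 40.0 CPM in cKO 1 to 4 and 51.2 CPM in the library labelled cKO 5, against 43.6, 49.9 and 51.0 CPM in WT 1, 2 and 3. Rgs12, a regulator of G protein signalling, averaged 11.6 ± 3.26 CPM in cKO (SD, n = 5) and 10.4 ± 0.932 CPM in WT (SD, n = 3).

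Over the numbers that the groups share, which leaves out cKO 4 and the library labelled cKO 5, 3 cKO and 3 WT libraries remained, and WT 1 was then the lowest library for most granule genes. In edgeR over these 6 libraries 3 of the 31 genes were higher and 1 was lower at an unadjusted p under 0.05, against 4.45% higher and 4.94% lower of all genes. C1ql3 had a log2 fold change of 0.78 there (unadjusted edgeR p 7.6e-04, adjusted p 0.261), Drd2 1.04 (0.0206, adjusted 0.450), Igfbp5 0.36 (0.0348, adjusted 0.491) and Glipr1 -0.65 (0.0280, adjusted 0.478), so none was called. The median log2 fold change of the granule genes was 0.27 there, and Dsp stood at 0.37, C1ql2 at 0.57 and Stxbp6 at 0.36. The sign for Dsp and Stxbp6 therefore differed with the libraries included. C1ql2 kept its sign over these 6 libraries but was at -0.05 without cKO 1, -0.16 without cKO 2 and -0.25 without WT 1.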

How the data were processed

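Raw counts per Ensembl gene in 8 TRAP libraries were deposited by the authors as 1 table of whole numbers without scaling. Per the submitters' processing notes, reads were aligned with STAR 2.5.3a to mm10 and counted with HTSeq; the annotation release, strand use and filters are not given in the sources used here. Symbols, positions and exon lengths came from GENCODE vM21 (same build), and 37693 of the 39017 genes matched. In R 4.3.3 with edgeR 4.0.16, counts were scaled by TMM, filtered by filterByExpr (17654 genes kept), fitted by quasi-likelihood with robust dispersions and tested two-sided for cKO against WT, with Benjamini-Hochberg adjustment over all genes tested and a threshold of 0.05. Exact permutation tests, two-sided, ran over the 56 splits into 5 and 3 on log2 CPM (prior count 2). Levels per length divide CPM by the union of exons. Marker lists are averages without a test. The fit was checked on simulated counts with known changes, whose means and dispersions were taken from the deposited counts. It called 7 of 50 genes changed 1.5-fold, 26 of 50 at 2-fold, 33 of 50 at 3-fold and 37 of 50 at 4-fold. It made 4 false calls among 17308 genes. Many changes of 2-fold or less thus went uncalled there.

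The members and lists were chosen with earlier results of these data known. Values in every library are given for genes with an unadjusted p under 0.05, the smallest p of each role group, the widest and narrowest spreads, the highest level per length and the defining markers; Trpc6, Dock10, Fgf1, Sema5b and the ratios were added after their values were seen. Correlations planned for 7 gene pairs were left out because 3 libraries lay apart from 5. Alternatives were other scalings and filters, DESeq2 1.42.0, non-robust dispersions, a GC and length correction, each library left out, and 6 libraries with and without a replicate block. Figures used Python 3.11.15 and matplotlib 3.10.9. A marker gene outside the 31 is not reported here.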

Additional observations from a re-analysis of the deposited data

Results flagged for a closer look

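Zbtb20 was at 1917 CPM in the library labelled cKO 5, against 1156 to 1257 CPM in the other cKO libraries. The gap was 0.868 of the whole range of the 5 cKO libraries, above the critical value of 0.71. Of 38 genes and lists tested this way 1 passed, where chance passes about 1 in 20. The cause was not tested.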

How the results depend on the processing

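Over 17 alternatives the 31 genes had 518 adjusted p-values and none was under 0.05. DESeq2 gave 6 genes no adjusted p, and the filter on 1 CPM left out Csf2rb2, Gal and Dkkl1. Of 524 comparisons of single genes 455 kept their direction and 69 reversed, and 8 genes never reversed. Genes called over the whole table numbered 2 higher without a filter and under the filter that asks for 1 CPM in at least 3 libraries, 5 higher and 5 lower over 6 libraries without the block, and 68 higher and 40 lower by DESeq2. Among the 31, genes at an unadjusted p under 0.05 numbered 3 higher over 6 libraries, also with the replicate block, 0 lower after the GC and length correction, and 0 to 2 higher and 0 to 2 lower with 1 library left out. Over all genes that count was 1540, and 847 to 2034 with 1 library left out. The granule median ran from -0.26 to 0.27 and the mossy median from 0.08 to 0.36.

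Log2 fold changes that reversed over 6 libraries without the block were Rfx3 0.087, Zbtb20 -0.079, Bhlhe22 0.26, Stxbp6 0.36, Trpc6 0.32, Npy1r -0.023, Dsp 0.37, Tdo2 0.28, Dock10 0.099, Il16 0.0067, Csf2rb2 0.43. With the replicate block they were Rfx3 0.11, Zbtb20 -0.077, Bhlhe22 0.23, Stxbp6 0.63, Trpc6 0.42, Npy1r -0.022, Dsp 0.56, Tdo2 0.48, Dock10 0.16, Il16 0.0031, Csf2rb2 1.86. After the GC and length correction they were C1ql2 -0.057, Tdo2 0.071. With 1 library left out, the genes that reversed ranged as follows: Rfx3 -0.27 to 0.061, Zbtb20 -0.082 to 0.15, Bhlhe22 -0.32 to 0.064, Maml2 -0.050 to 0.75, C1ql2 -0.25 to 0.67, Sv2c -0.12 to 0.20, Stxbp6 -0.62 to 0.47, Trpc6 -0.48 to 0.28, Npy1r -0.050 to 0.16, Dsp -0.50 to 0.51, Tdo2 -0.43 to 0.46, Lct -0.20 to 0.0071, Plk5 -0.30 to 1.24, Igfbp5 -0.040 to 0.24, Calcrl -0.11 to 0.43, Csf2rb2 -1.24 to 4.09, Nmb -0.046 to 0.38, Gal -0.096 to 1.01, Fgf1 -0.25 to 0.27, Thbs2 -0.25 to 0.64, Ajap1 -0.12 to 0.00025. The genes that never reversed ranged likewise: C1ql3 0.23 to 0.63, Calb1 -0.42 to -0.18, Pdzd2 -0.51 to -0.19, Dcx 0.028 to 0.37, Drd2 0.70 to 1.30, Dkkl1 0.80 to 2.37, Glipr1 -0.72 to -0.44, Rgs12 0.0043 to 0.26. The cause was not tested.

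Between cKO and WT libraries of the same number, the departure of 7548 genes from their group means gave r = -0.21, 0.058 and 0.080, so the numbers give no sign of pairing. Counts near 0 limit Csf2rb2, Dkkl1, Gal, Thbs2 and Plk5.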
